A study of Mus musculus with 16 samples.

Results

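Genes for the adaptor and linker proteins of focal adhesions were examined in RNA-seq of immortalized mouse keratinocytes with and without the integrin α3 subunit. The members were chosen by name, with earlier results of these data known, and matched to the gene symbols of the deposited count table. All 39 of the 39 listed genes were among its 14474 genes. MKα3- cells lack α3 integrin (null), and MKα3+ cells are the null cells reconstituted with human α3 integrin (rescued), so the rescued subunit is a transgene product and each genotype is represented by 1 line. Both lines were grown on collagen-coated dishes in low-calcium medium at 33 °C with 8% CO2. Cells of each line received laminin-332 (LN332, the epidermal basement membrane laminin that binds integrin α3β1) at 0.02 mg/mL or an equal volume of vehicle (PBS, glycine and sodium azide) for 16 to 24 h. Each of the 4 groups, MKα3- with vehicle, MKα3- with LN332, MKα3+ with vehicle and MKα3+ with LN332, had 4 replicates.

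Integrins have no enzymatic activity and reach the actin cytoskeleton through layers of cytoplasmic proteins. Talins and kindlins bind the integrin β tail directly and switch the receptor to its active form, vinculin reinforces the talin link to actin, and the complex of ILK, PINCH and parvin, together with paxillin, recruits further partners. LIM domain proteins of the zyxin family, PDZ-LIM proteins, α-actinins, filamins and the Ena/VASP proteins act on the actin filaments that end at the adhesion. Tensins mark long-lived adhesions, GIT and PAK proteins connect adhesions to Rac and Cdc42, and KANK proteins ring adhesions and connect talin with cortical microtubules. In keratinocytes these adhesions act beside hemidesmosomes, which attach to keratin filaments instead of actin.

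The libraries held between 21735708 and 29338370 counts, with a median of 27036993. All 9 keratinocyte markers were in the table, with summed levels of 9600 to 21000 CPM (counts scaled to a common library size) per library. The 6 fibroblast markers in the table summed to 12.1 to 43 CPM, the 4 endothelial markers to 3.33 to 6.45 CPM, and *Pmel*, the 1 melanocyte marker of 5 in the table, stood at 0.827 to 3.94 CPM. The 4 immune markers in the table, of 5 listed, summed in vehicle to 23.4 to 50.5 CPM in MKα3- cells and 36.1 to 94.5 CPM in MKα3+ cells, and in LN332 to 13.1 to 37.8 and 24.1 to 88.1 CPM. Of these 4, *Ptprc*, the pan-leukocyte marker, was at most 3.81 CPM in any library, and *Cd68* was 21.8 to 41.2 CPM in MKα3- and 22.8 to 33.4 CPM in MKα3+ libraries with vehicle. The macrophage marker *Adgre1* was 0.106 to 4.88 CPM in MKα3- and 7.3 to 34.9 CPM in MKα3+ libraries with vehicle, and *Itgam* 0.319 to 3.73 and 5.02 to 25.5 CPM, both without overlap. With LN332 the lines overlapped in both genes (*Adgre1* 0.196 to 7.61 and 0.924 to 35.2 CPM, *Itgam* 0.587 to 4.2 and 1.41 to 27.8 CPM). The part of these genes in the differences between the lines was not tested. Mouse *Itga3* had levels of 259 ± 42.4 (MKα3-) and 277 ± 46.8 CPM (MKα3+) with vehicle (SD, n = 4; adjusted p = 0.694 by limma-voom) so the targeted gene does not check the labels. The human transcript was not analysed here, and where along mouse *Itga3* the counts of the MKα3- cells fall was not tested. Of the members, 35 lay at or above 7.32 CPM (204 counts) in every library. The other 4, *Lims2*, *Parvb*, *Tgfb1i1* and *Flnc*, did not exceed 3.90 CPM in any library and are given no direction.

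Between MKα3+ and MKα3- cells the called members differed in both directions, as did the called genes of the whole table. In the zyxin family and in the tensins, called paralogs differed in opposite directions. In vehicle, 9 of the 39 members (23.1%) passed an adjusted p under 0.05 by limma-voom with an absolute log2 fold change over 0.5 (hereafter called), against 18.5% of all 14474 genes. Of these, 6 were higher in MKα3+ cells (*Tns3*, *Lpp*, *Evl*, *Pdlim7*, *Fblim1* and *Tns1*), where 10.9% of all genes were, and 3 were lower (*Trip6*, *Tns4* and *Csrp1*), where 7.56% of all genes were. With no minimum fold change 15 members (38.5%) passed, against 28.4% of all genes. These shares lie near or somewhat above those of all genes, and the list was not tested as a set.

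In LN332, 11 members (28.2%) were called between the lines, against 20.6% of all genes. The 9 that were higher in MKα3+ cells were *Tns3*, *Lpp*, *Evl*, *Pdlim7*, *Kank2*, *Tln1*, *Fermt1*, *Fblim1* and *Actn1* (11.7% of all genes were called higher), and the 2 that were lower were *Trip6* and *Tns4* (8.92% of all genes). With no minimum fold change 15 members passed, against 32.2% of all genes. The comparisons in vehicle and in LN332 share no library, although they share the same pair of lines. In both, 7 members were called in the same direction, which is 77.8% of the members called in vehicle and 63.6% of those called in LN332. Over all genes the corresponding shares were 81.4% and 72.9%. The median log2 fold change over the members was 0.27 in vehicle and 0.26 in LN332, with a median over all genes of 0.01 in each. The mean over the members was 0.18 in each.

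**Figure D1:**
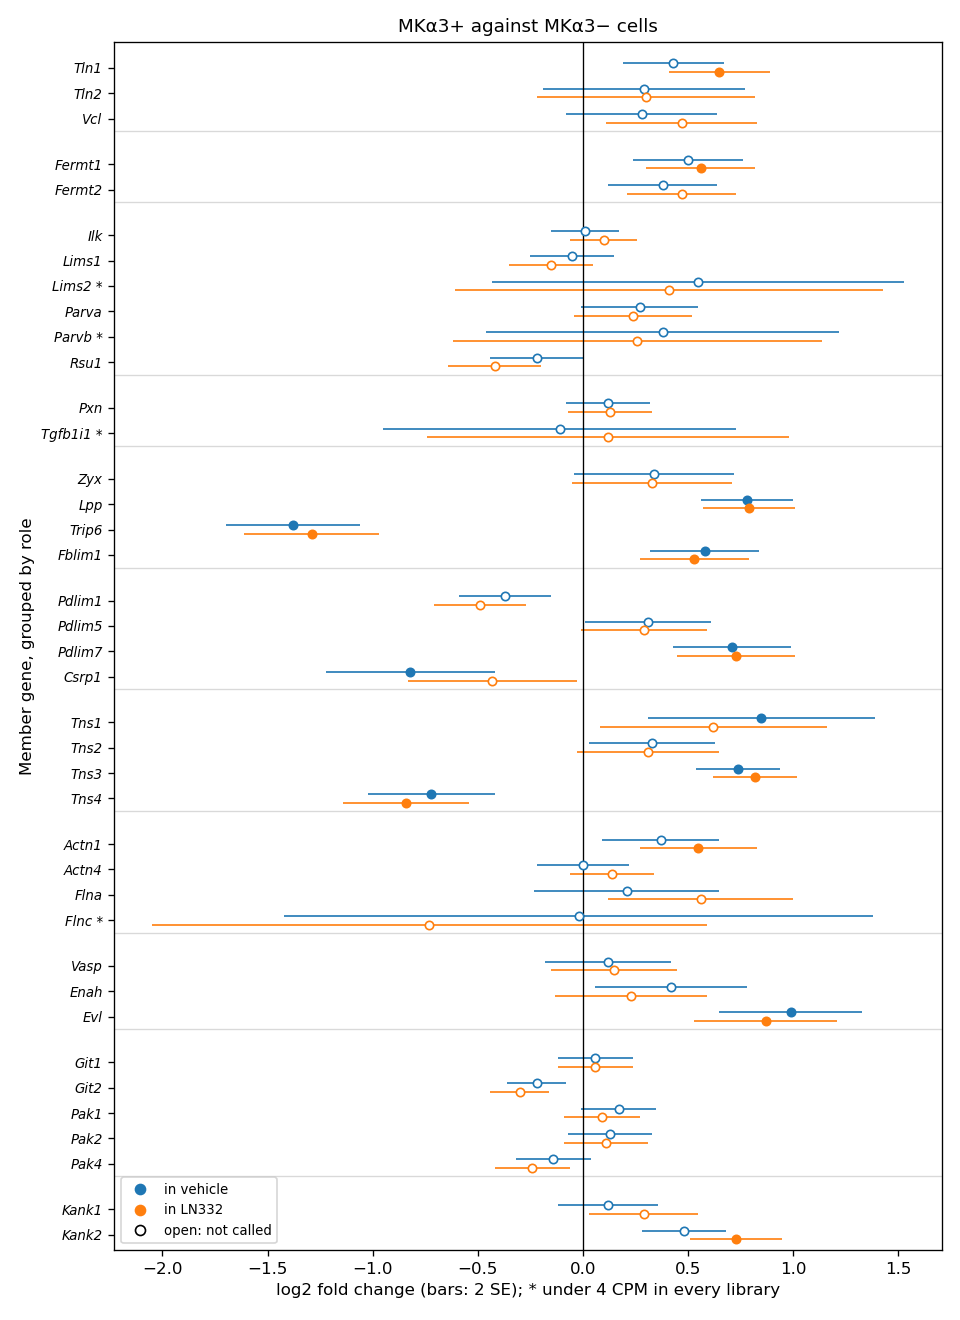
The log2 fold change of each of the 39 members in MKα3+ against MKα3- cells is plotted on the horizontal axis, in vehicle (blue) and in LN332 (orange), with bars of 2 SE. Members are grouped by role, filled points are called, and an asterisk marks the 4 members under 4 CPM in every library. *Trip6* lies farthest to the left at -1.38 and -1.29, and *Evl* farthest to the right at 0.99 and 0.87 among the filled points.

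The zyxin family held the member with the largest difference. *Trip6* encodes a LIM protein that sits at adhesions and cell junctions and binds regulators of Hippo signalling. With vehicle its levels were 112, 78.2, 92.9 and 69.4 CPM in the MKα3- libraries and 37, 34.4, 33.2 and 29.4 CPM in the MKα3+ libraries. In LN332 they were 86.3, 63.7, 82.3 and 69.2 CPM in MKα3- and 40.7, 30.2, 28.3 and 25.5 CPM in MKα3+ cells. Every MKα3+ library thus lay below every MKα3- library, by -1.38 ± 0.16 on the log2 scale (SE; adjusted p = 3.87e-06 by limma-voom) in vehicle and -1.29 ± 0.16 (adjusted p = 9.02e-06) in LN332.

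*Lpp*, a close paralog of zyxin that also binds α-actinin and VASP, went the other way. It stood at 82, 99.5, 91.5 and 100 CPM in MKα3- cells and at 150, 165, 159 and 167 CPM in MKα3+ cells with vehicle. In LN332 the values were 85.9, 126, 110 and 105 CPM against 154, 185, 195 and 200 CPM. The groups did not overlap at either treatment, and the log2 fold changes were 0.78 ± 0.11 (SE; adjusted p = 5e-05 by limma-voom) and 0.79 ± 0.11 (adjusted p = 4.8e-05). *Fblim1*, which encodes migfilin, a LIM protein that binds filamin and kindlin, stood at 61.9 ± 10.4 (MKα3-) and 91.6 ± 5.33 CPM (MKα3+) with vehicle (SD, n = 4; log2 fold change 0.58 ± 0.13 SE, adjusted p = 0.00322 by limma-voom). In LN332 its log2 fold change of 0.53 fell to 0.41 without MKα3+ LN332 replicate 1 and to 0.45 without MKα3- LN332 replicate 2, below the minimum of 0.5.

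*Zyx* itself, which encodes zyxin, a LIM protein drawn to stretched actin filaments, stood at 279 ± 41.1 (MKα3-) and 351 ± 7.18 CPM (MKα3+) with vehicle (SD, n = 4), a difference of 0.34 ± 0.19 (log2, SE) that did not pass (adjusted p = 0.181 by limma-voom). Per exon length, *Zyx* made up 60.0 ± 7.6% of the summed level of *Zyx*, *Lpp* and *Trip6* in MKα3- cells and 77.5 ± 1.0% in MKα3+ cells with vehicle (SD, n = 4). The *Trip6* share was 35.0 ± 8.0% and 13.6 ± 1.4% in the same groups, and 25.4 ± 9.0% and 9.51 ± 1.7% in LN332. These shares describe the same counts as the fold changes and carry no test of their own.

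Among the tensins, which bind integrin β tails through a phosphotyrosine-binding domain, the 2 most abundant members moved apart. *Tns3* encodes a long tensin with an actin-binding region. It was 142, 122, 148 and 148 CPM in MKα3- and 240, 221, 238 and 234 CPM in MKα3+ cells with vehicle. In LN332 it was 155, 143, 180 and 177 CPM and 303, 244, 311 and 298 CPM. All MKα3+ libraries were above all MKα3- libraries, with log2 fold changes of 0.74 ± 0.10 (SE; adjusted p = 2.39e-05 by limma-voom) and 0.82 ± 0.10 (adjusted p = 8.24e-06).

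*Tns4* encodes Cten, a short tensin without the actin-binding region of the long forms. Its vehicle levels were 452, 310, 443 and 386 CPM in MKα3- and 224, 223, 263 and 250 CPM in MKα3+ cells. With LN332 they were 359, 298, 493 and 363 CPM and 209, 171, 233 and 222 CPM. Again the lines did not overlap, and the differences were -0.72 ± 0.15 (log2, SE; adjusted p = 0.0014 by limma-voom) and -0.84 ± 0.15 (adjusted p = 0.000277). The ratio of *Tns4* to *Tns3* counts within a library, a measure picked after both values were known and so given without a test, was 2.83 ± 0.306, 2.30 ± 0.32, 1.03 ± 0.0769 and 0.722 ± 0.031 (SD, n = 4) in MKα3- vehicle, MKα3- LN332, MKα3+ vehicle and MKα3+ LN332. Per exon length *Tns4* held 75.1 ± 2.7% of the tensin level in MKα3- and 53.2 ± 1.6% in MKα3+ cells with vehicle, and *Tns3* 16.9 ± 1.2% and 33.0 ± 1.7%.

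*Tns1*, another long tensin, was less certain. In vehicle it was 26.7, 46.7, 43.6 and 70 CPM in MKα3- and 66, 78.8, 79.1 and 98.1 CPM in MKα3+ cells, so that the highest MKα3- library reached into the MKα3+ range. The lines differed by 0.85 ± 0.27 (log2, SE; adjusted p = 0.024 by limma-voom; exact permutation p = 0.0571, two-sided). The call was lost without MKα3- vehicle replicate 1 (0.61), without MKα3- vehicle replicate 3 (0.84) and without MKα3+ vehicle replicate 4 (0.75), where the adjusted p reached at most 0.0899. In LN332 the difference was 0.62 ± 0.27 (adjusted p = 0.0923), and the change of the difference between the treatments was -0.23 ± 0.38. *Tns2* was 20.4 ± 4.07 and 25.5 ± 2.96 CPM in vehicle (SD, n = 4) and was not called (0.33 ± 0.15 SE, adjusted p = 0.118).

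**Figure D2:**
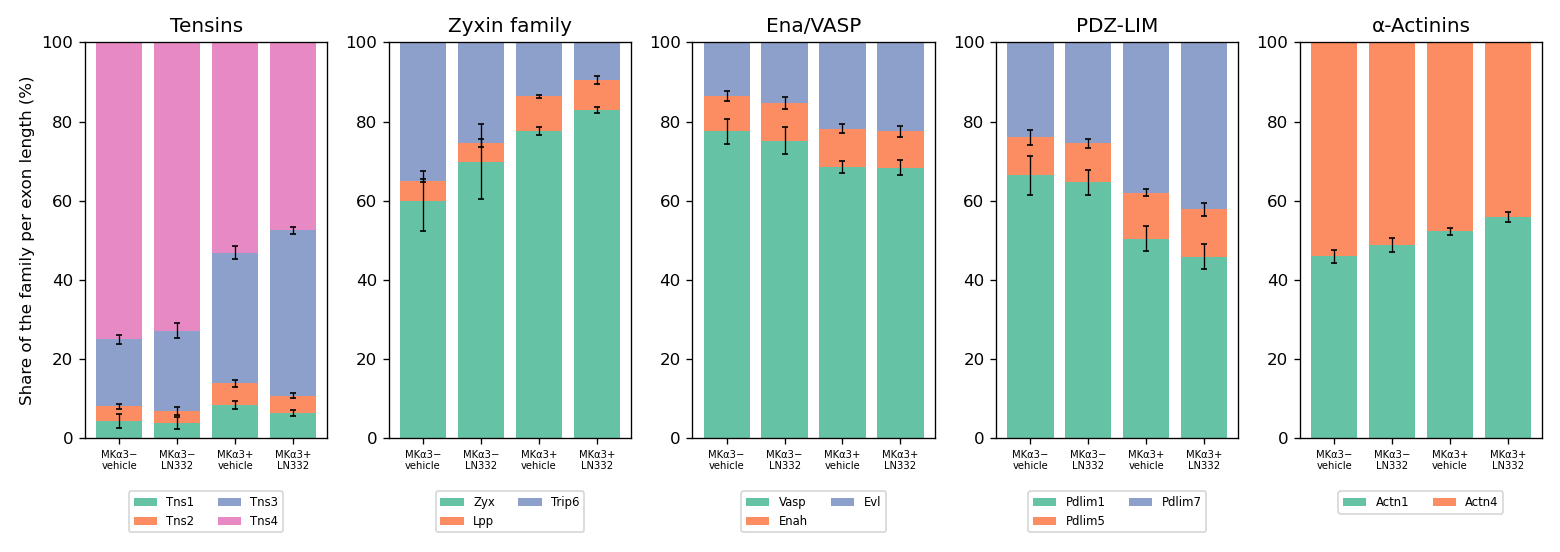
Stacked bars give each paralog's mean share of its family in percent, from CPM divided by exon length, in the 4 groups. The black bars at the top of a segment are the SD of that segment's share (n = 4). The *Tns4* segment shrinks from 75.1% to 53.2% and the *Trip6* segment from 35.0% to 13.6% between MKα3- and MKα3+ cells with vehicle.

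PDZ-LIM proteins couple α-actinin to signalling partners through their LIM domains. *Pdlim7* encodes Enigma. Its vehicle levels were 132, 145, 114 and 152 CPM in MKα3- and 274, 193, 211 and 209 CPM in MKα3+ cells. In LN332 they were 168, 186, 166 and 248 CPM and 369, 288, 300 and 308 CPM. The MKα3+ libraries were all above the MKα3- libraries of the same treatment, by log2 fold changes of 0.71 ± 0.14 (SE; adjusted p = 0.00101 by limma-voom) and 0.73 ± 0.14 (adjusted p = 0.000844). *Pdlim1*, which encodes CLP36, differed in the other direction by less than the minimum fold change, from 328 ± 29.9 to 254 ± 15.6 CPM in vehicle (SD, n = 4; log2 fold change -0.37 ± 0.11 SE, adjusted p = 0.0146 by limma-voom). In LN332 it lay at the edge of the minimum (-0.49 ± 0.11, adjusted p = 0.00195). Scaling by library size alone and a fit of only the groups compared called it there, and edgeR and DESeq2 did not. *Pdlim5*, which encodes ENH, was 128 ± 24 and 157 ± 2.31 CPM in vehicle and was not called (0.31 ± 0.15 SE, adjusted p = 0.138).

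*Csrp1*, for a small LIM protein that binds α-actinin and actin bundles, was lower in MKα3+ cells with vehicle. Its levels were 338, 220, 306 and 235 CPM in MKα3- and 197, 140, 145 and 139 CPM in MKα3+ cells, with no overlap (log2 fold change -0.82 ± 0.20 SE; adjusted p = 0.00537 by limma-voom). In LN332 the levels were 181, 195, 279 and 339 CPM against 236, 155, 184 and 152 CPM, which overlapped, and the difference of -0.43 ± 0.20 did not pass (adjusted p = 0.105). The differences at the 2 treatments were not shown to differ from each other, since the interaction was 0.38 ± 0.28 (adjusted p = 1).

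The Ena/VASP proteins speed the growth of actin filaments. *Evl* was 29.7, 46.8, 37.7 and 33.3 CPM in MKα3- and 76.5, 73.3, 68.4 and 71.8 CPM in MKα3+ cells with vehicle. In LN332 it was 27.2, 49.6, 43 and 58 CPM and 86, 80.1, 73.4 and 74 CPM. The lines were apart at both treatments, with log2 fold changes of 0.99 ± 0.17 (SE; adjusted p = 0.000335 by limma-voom) and 0.87 ± 0.17 (adjusted p = 0.000932). The other two, *Vasp* (172 ± 8.85 and 187 ± 9.42 CPM in vehicle, SD, n = 4) and *Enah*, which encodes Mena (113 ± 19.3 and 150 ± 14.4 CPM), were not called in either comparison of the lines. Per exon length *Vasp* remained the largest part of the family, at 77.5 ± 3.1% in MKα3- and 68.5 ± 1.5% in MKα3+ cells with vehicle, and *Evl* was 13.6 ± 2.5% and 21.8 ± 0.84%. The exons of *Evl* overlap those of *Degs2* on the opposite strand over 10.3% of their length, and whether the counting used strand is not stated.

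The proteins that touch the integrin tail differed by smaller amounts. *Tln1*, the principal talin of these cells, with 97.2 ± 0.75% of the talin level per exon length in MKα3- cells with vehicle, was 293, 308, 322 and 311 CPM in MKα3- and 336, 431, 468 and 444 CPM in MKα3+ cells. In LN332 it was 284, 306, 349 and 263 CPM against 392, 461, 506 and 526 CPM. The groups did not overlap at either treatment. Its difference of 0.43 ± 0.12 (log2, SE) in vehicle was under the minimum (adjusted p = 0.0108 by limma-voom), and that of 0.65 ± 0.12 in LN332 was called (adjusted p = 0.000459). The difference between the 2 values was 0.22 ± 0.17 and was not called.

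*Fermt1* encodes kindlin-1, whose loss in people causes the skin fragility of Kindler syndrome. It was 79.3 ± 2.9 and 112 ± 8.98 CPM in vehicle (SD, n = 4; log2 fold change 0.50 ± 0.13 SE, adjusted p = 0.00935 by limma-voom), at the edge of the minimum, and 95.3 ± 11 and 143 ± 32.1 CPM in LN332 (0.56 ± 0.13, adjusted p = 0.00377). The call in LN332 was lost without MKα3+ LN332 replicate 1 (0.44) or MKα3- LN332 replicate 2 (0.49), and edgeR's quasi-likelihood test called the gene in vehicle too. *Fermt2*, which encodes the widely expressed kindlin-2, was 14.1 ± 0.626 and 18.5 ± 1.63 CPM in vehicle and passed on adjusted p but not on fold change at either treatment (0.38 ± 0.13 and 0.47 ± 0.13). *Vcl*, for vinculin, was 192 ± 41 and 230 ± 21.2 CPM in vehicle and 198 ± 48.5 and 268 ± 36.3 CPM in LN332, and was not called (0.28 ± 0.18 and 0.47 ± 0.18, adjusted p = 0.27 and 0.0574). Exons of *Ap3m1* lie on the opposite strand over 39.7% of its exon length.

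None of the 6 members of the ILK-PINCH-parvin group was called between the lines by limma-voom at either treatment. *Ilk*, for the pseudokinase at the centre of the complex, was 93.8 ± 4.41 and 94.5 ± 6.84 CPM in vehicle (SD, n = 4). The interval of 2 SE on each side of its log2 difference ran from -0.16 to 0.17, and later intervals are of the same kind. Exons of *Taf10* cover 81.7% of the *Ilk* exon length on the opposite strand, so the *Ilk* counts are uncertain. *Lims1*, for the main PINCH protein, was 129 ± 7 and 125 ± 6.25 CPM (interval -0.24 to 0.15). *Parva*, for α-parvin, was 237 ± 16.5 and 286 ± 24.3 CPM (interval -0.01 to 0.55). *Rsu1*, whose product binds PINCH, was lower in MKα3+ cells by less than the minimum fold change in LN332 (60.7 ± 2.49 and 45.9 ± 8.22 CPM; -0.42 ± 0.11 SE, adjusted p = 0.00653 by limma-voom). *Parva* held 99.7% of the parvin level per exon length in each group, and *Lims1* 98.8 to 99.2% of the PINCH level.

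*Pxn*, for the scaffold paxillin, was 389 ± 16.1 and 423 ± 8.27 CPM in vehicle (SD, n = 4) and 383 ± 61.3 and 416 ± 16 CPM in LN332, with intervals of the log2 difference from -0.08 to 0.32 and from -0.07 to 0.33. Of the GIT and PAK members, *Git2* passed on adjusted p alone (80.7 ± 1.82 and 69.3 ± 5.48 CPM in vehicle; -0.22 ± 0.07 SE, adjusted p = 0.031 by limma-voom), and *Git1*, *Pak1*, *Pak2* and *Pak4* had log2 fold changes of -0.24 to 0.17 over the 2 comparisons of the lines, none of them past the test.

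Among the actin crosslinkers, *Actn1*, for α-actinin-1, was 704 ± 91.1 and 907 ± 92.7 CPM in vehicle (SD, n = 4; 0.37 ± 0.14 SE, adjusted p = 0.0555 by limma-voom). In LN332 it was 629, 711, 1000 and 810 CPM in MKα3- and 1060, 1030, 1300 and 1180 CPM in MKα3+ cells, a called difference of 0.55 ± 0.14 (adjusted p = 0.0058). The call was lost without MKα3- LN332 replicate 1 (0.45) or MKα3+ LN332 replicate 3 (0.48). *Actn4*, its paralog, was 856 ± 68.1 and 857 ± 61.7 CPM in vehicle, and the *Actn1* share of the pair per exon length was 45.9 ± 1.7% and 52.2 ± 0.82%. *Flna*, for filamin A, ranged from 557 to 1260 CPM in MKα3- and from 961 to 1490 CPM in MKα3+ cells with LN332, and its difference of 0.56 ± 0.22 did not pass (adjusted p = 0.0632 by limma-voom), while DESeq2 called it (adjusted p = 0.0465).

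*Kank2* was higher in MKα3+ cells and lower with LN332. It was 45.7, 42.6, 51 and 49.1 CPM in MKα3- and 66.2, 69.7, 65 and 61.8 CPM in MKα3+ cells with vehicle. In LN332 it was 29.5, 30.8, 41.2 and 34.8 CPM and 49.7, 54.6, 60.9 and 59.2 CPM. The lines were apart at both treatments. They differed by 0.48 ± 0.10 (log2) in vehicle, under the minimum (SE; adjusted p = 0.00169 by limma-voom), and 0.73 ± 0.11 in LN332 (adjusted p = 5.04e-05). *Kank1* was 24.4 ± 3.74 and 26.3 ± 1.11 CPM in vehicle (SD, n = 4) and was not called.

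**Figure D3:**
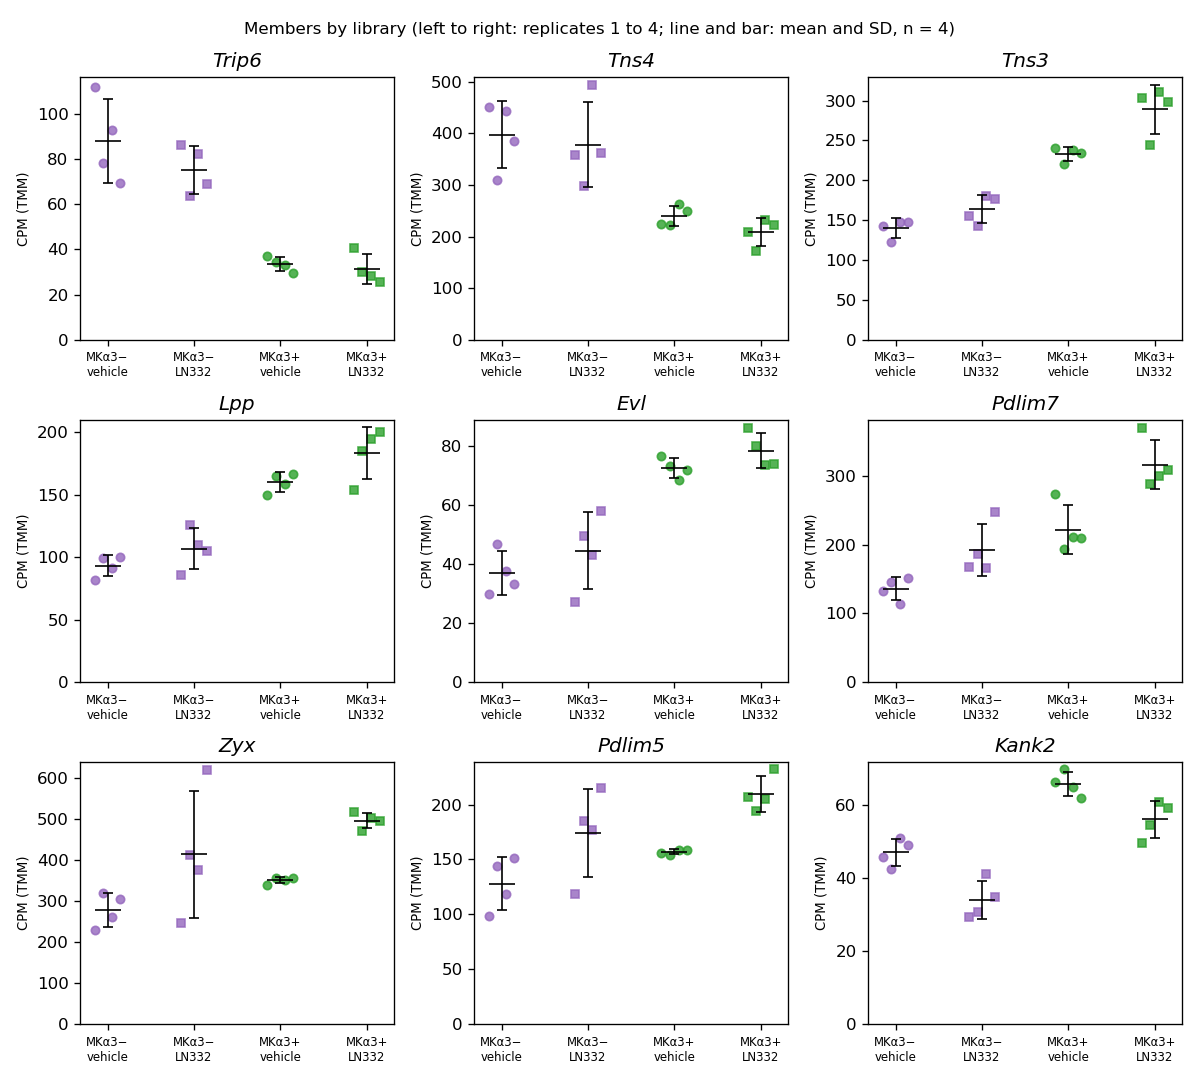
Levels of 9 members in CPM are plotted for each of the 16 libraries (circles vehicle, squares LN332, purple MKα3-, green MKα3+), with a line and bar for the mean and SD of 4 replicates on axes that start at 0. *Trip6* and *Tns4* are lower in every MKα3+ library, and *Tns3*, *Lpp* and *Evl* are higher. The MKα3- LN332 libraries of *Zyx* spread from 246 to 619 CPM.

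LN332 moved few members. In MKα3+ cells 0 of 39 were called by limma-voom, against 0.187% of all genes. An unadjusted p under 0.05 was found for 10 of the 39 members, against 1388 of all 14474 genes. EdgeR called 0 members and 4 of all genes, and DESeq2 called 1 member and 121 of all genes. In these cells the replicate numbers were taken to pair the libraries, from correlations in the data and not from the labels. With the replicate number as a block 1 member, *Pdlim7*, was called, against 1.51% of all genes. In MKα3- cells limma-voom and both other tools called 0 members. Of all genes, limma-voom called 0.304% there, edgeR 47 genes and DESeq2 165 genes. An unadjusted p under 0.05 was found for 8 of the 39 members, against 2023 of all 14474 genes. Averaged over both lines, 2 members (5.13%) were called, *Pdlim7* and *Zyx*, both higher with LN332, against 1.35% of all genes (0.919% higher and 0.435% lower). With no minimum fold change 6 members (15.4%) passed in the average, against 4.4% of all genes. They comprised *Pdlim7*, *Zyx*, *Pdlim5*, *Pdlim1* and *Tns3*, which were higher (2.4% of all genes), and *Kank2*, which was lower (2% of all genes). The interaction called 0 members (0% of all genes) by limma-voom, edgeR and DESeq2. There 0 members had an unadjusted p under 0.05, against 164 of all 14474 genes.

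*Pdlim7* rose with LN332 in the average of the lines by 0.51 ± 0.10 (log2, SE; adjusted p = 0.00943 by limma-voom). Scaling by library size alone put the change at 0.43, which ended the call. In each line the 4 LN332 libraries lay above the 4 vehicle libraries (exact permutation p = 0.0286 in each line, two-sided, the smallest that 4 against 4 allows). Within MKα3+ cells the change was 0.52 ± 0.14, with an adjusted p of 0.166, or 0.0341 with the replicate block, and 0.49 ± 0.14 in MKα3- cells (adjusted p = 0.136). The averaged change stood at or under 0.50 without MKα3+ LN332 replicate 1 (0.47), MKα3+ vehicle replicate 2 (0.47), 3 (0.50) or 4 (0.49), MKα3- vehicle replicate 3 (0.46) or MKα3- LN332 replicate 4 (0.44), which ended the call on fold change alone, since its adjusted p was at most 0.0249 without any 1 library.

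*Zyx* rose by 0.51 ± 0.13 (log2, SE; adjusted p = 0.039 by limma-voom) in the average, and by 0.43, under the minimum, with scaling by library size alone. Its MKα3+ levels were 340, 356, 352 and 356 CPM with vehicle and 517, 471, 502 and 494 CPM with LN332, apart and narrow. The MKα3- levels were 229, 319, 261 and 305 CPM with vehicle and 246, 413, 376 and 619 CPM with LN332, where the lowest LN332 library fell within the vehicle range. Leaving out libraries 1 at a time ended the call in 12 of 16 fits, with log2 changes of 0.39 to 0.52 and adjusted p of at most 0.0784. These were the fits without any 1 of the 8 MKα3+ libraries, without MKα3- vehicle replicate 1 or 3, and without MKα3- LN332 replicate 2 or 4. The lowest value, 0.39, was without MKα3- LN332 replicate 4, the library with the fewest counts (21735708). In MKα3- cells alone, leaving out LN332 replicate 1, in which the ribosomal *Rn45s* took the largest share of counts (1.42%, against 0.502 to 1.06% in the others), brought *Zyx* and *Pdlim5* over the threshold, for 2 members called. Whether the count total or the *Rn45s* share of a library bears on these values was not tested.

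The promoter sequences of the 2 called members are shown because their transcripts rose together with LN332, and that of *Kank2* because it was the 1 member to fall on adjusted p. Each is the 250 bases before 1 RefSeq start site per gene in GRCm38 (mm10), 5′ to 3′ on the strand of the gene. The gene spans cover all RefSeq transcripts, some of which start farther upstream. The *Zyx* window therefore lies inside its gene span, and the *Pdlim7* window, read on the strand of the gene, ends inside its own. *Zyx* lies at chr6:42349511-42360213 on the plus strand, *Pdlim7* at chr13:55497487-55513473 and *Kank2* at chr9:21766773-21798546, both on the minus strand, and the windows are chr6:42349578-42349827, chr13:55513447-55513696 and chr9:21798547-21798796. The capitals in *Zyx* mark a match to the AP-1 motif TGANTCA, 121 to 115 bases before the start. The other 2 windows held no match to the 3 motifs searched.
Zyx: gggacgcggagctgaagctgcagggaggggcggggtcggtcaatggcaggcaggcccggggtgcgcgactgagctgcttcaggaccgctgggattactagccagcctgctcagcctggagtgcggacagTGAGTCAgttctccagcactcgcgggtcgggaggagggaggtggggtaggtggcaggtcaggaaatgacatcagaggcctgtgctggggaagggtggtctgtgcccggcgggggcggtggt
Pdlim7: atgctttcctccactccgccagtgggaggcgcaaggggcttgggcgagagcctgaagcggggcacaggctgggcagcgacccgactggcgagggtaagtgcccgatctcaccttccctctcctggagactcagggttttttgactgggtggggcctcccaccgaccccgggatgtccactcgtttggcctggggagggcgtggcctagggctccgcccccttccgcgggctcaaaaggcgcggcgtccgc
Kank2: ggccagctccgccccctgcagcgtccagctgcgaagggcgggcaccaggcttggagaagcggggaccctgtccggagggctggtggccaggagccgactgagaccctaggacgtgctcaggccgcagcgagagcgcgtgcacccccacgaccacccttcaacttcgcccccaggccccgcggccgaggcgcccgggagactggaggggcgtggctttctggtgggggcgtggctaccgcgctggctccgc

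Promoter windows, from 250 bases before to 50 after the start, were found for 32 of the 39 members and 10903 genes of the table, and both strands were searched. The TEAD motif GGAATG, bound by the partners of YAP, was in 8 member windows (25%, against 14.7% of all windows), those of *Actn4*, *Evl*, *Fblim1*, *Flna*, *Flnc*, *Lpp*, *Trip6* and *Vcl*. The AP-1 motif TGANTCA was in 3 (9.38%, against 6.81%), those of *Actn4*, *Fblim1* and *Zyx*. The CArG box, the site of serum response factor, was in 4 (12.5%, against 1.51%), those of *Fermt2*, *Rsu1*, *Trip6* and *Vcl*. The TEAD motif thus stood before genes that were higher (*Lpp*, *Evl*, *Fblim1*) and lower (*Trip6*) in MKα3+ cells alike.

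The members next in order with LN332 were not called within a line by limma-voom on all libraries. *Kank2* had the smallest p of the members in MKα3- cells, -0.48 ± 0.11 (log2, SE; adjusted p = 0.0594 by limma-voom), with all 4 LN332 libraries under all 4 vehicle libraries. The tools differed there. Adjusted p by DESeq2 was 0.00443 for *Kank2*, 0.0324 for *Pdlim7* and 0.0356 for *Pdlim1*, none of them called. By edgeR's quasi-likelihood test the values were 0.0596, 0.147 and 0.164. In MKα3+ cells *Kank2* changed by -0.23 ± 0.10 (adjusted p = 0.468 by limma-voom, or 0.171 with the replicate block), again without overlap. The averaged change was -0.35 ± 0.07 (adjusted p = 0.0119). Its responses in the lines differed by 0.25 ± 0.15, which did not pass (adjusted p = 1 by limma-voom).

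*Pdlim5* was 98.6, 144, 119 and 151 CPM in MKα3- vehicle and 119, 185, 177 and 215 CPM in MKα3- LN332 libraries, and 156, 154, 159 and 159 CPM against 207, 194, 205 and 232 CPM in MKα3+ cells. The MKα3+ groups were apart and the MKα3- groups overlapped. The average of 0.42 ± 0.11 (log2, SE) passed on adjusted p alone (0.0354 by limma-voom). *Pdlim1* (0.29 ± 0.07, adjusted p = 0.0365) and *Tns3* (0.26 ± 0.07, adjusted p = 0.042) did likewise. Within MKα3+ cells *Tns3* changed by 0.30 ± 0.10 (adjusted p = 0.274, or 0.022 with the replicate block). With the block *Actn1* (0.33, adjusted p = 0.021) and *Flna* (0.42, adjusted p = 0.0301) also passed on adjusted p in MKα3+ cells. All of these changes were under the minimum fold change. In MKα3- cells *Pdlim1* was 339, 327, 359 and 288 CPM with vehicle and 351, 440, 438 and 449 CPM with LN332 (adjusted p = 0.168). Of the 4 genes in the group of PDZ-LIM proteins and *Csrp1*, 3 passed on adjusted p in the average, all upward, where 2.4% of all genes did. This was the role group with the largest such share (75%), and it was not tested as a set. Among 19 other LIM and PDZ-LIM genes outside the members, 2 (10.5%) passed in the average, both upward. With scaling by library size alone the 3 changes stayed positive, at 0.43 for *Pdlim7*, 0.34 for *Pdlim5* and 0.21 for *Pdlim1*. *Csrp1* changed by 0.03 ± 0.14.

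**Figure D4:**
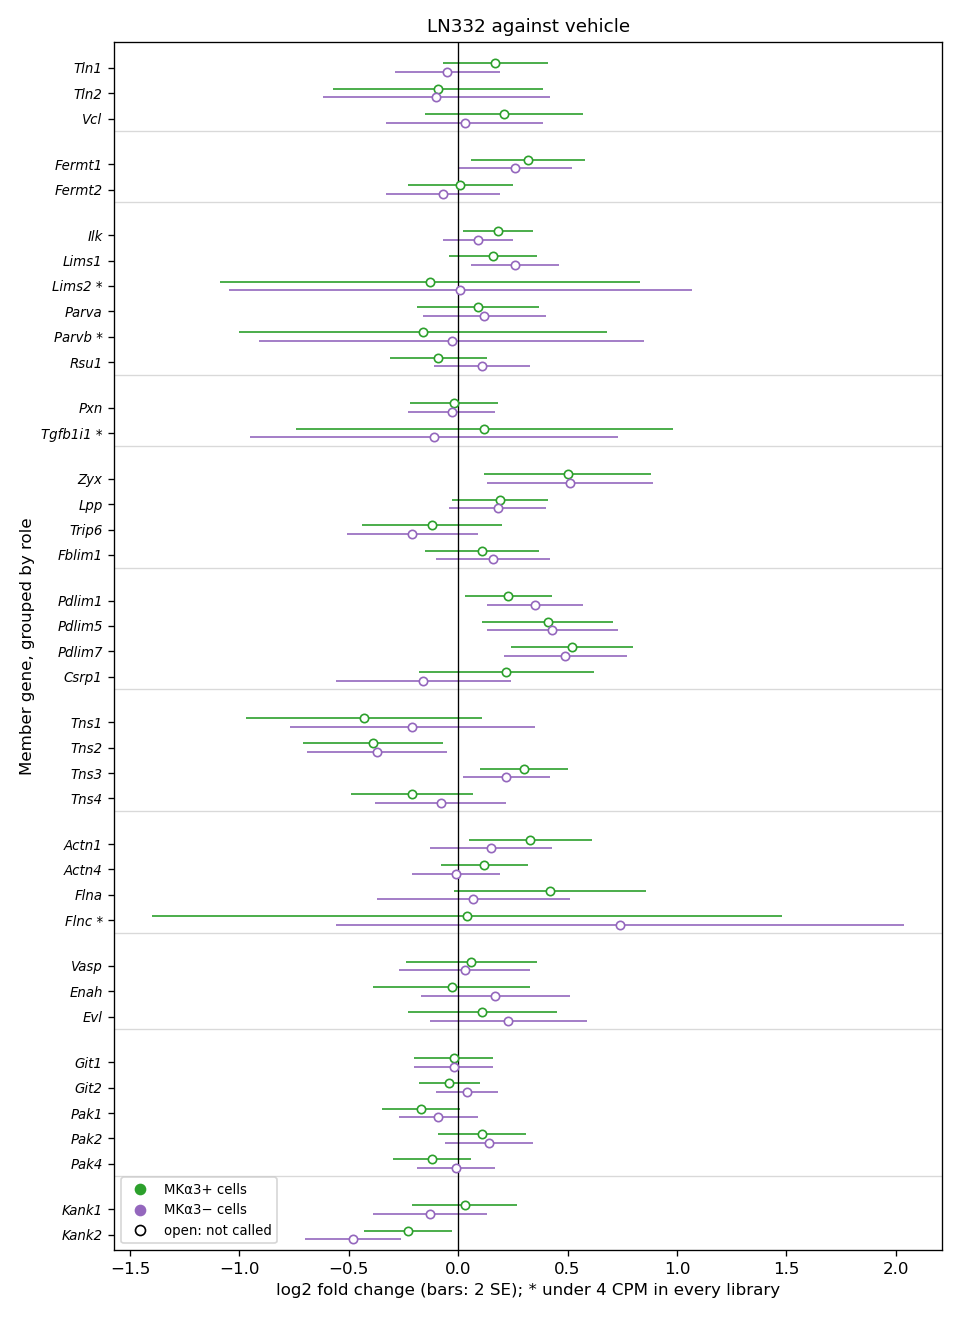
The log2 fold change of each member with LN332 against vehicle is plotted for MKα3+ (green) and MKα3- (purple) cells, with bars of 2 SE, in the same order as the plot of the lines. No point is filled, since no member was called in either line alone. *Pdlim7* lies at 0.52 and 0.49, *Zyx* at 0.50 and 0.51, and *Kank2* at -0.23 and -0.48.

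The mean log2 CPM over the members was 6.13 ± 0.12 in MKα3- vehicle, 6.20 ± 0.11 in MKα3- LN332, 6.30 ± 0.02 in MKα3+ vehicle and 6.37 ± 0.05 in MKα3+ LN332 libraries (SD, n = 4). The mean log2 fold change with LN332 was 0.07 in each line with TMM scaling and -0.01 with library size alone, so the set as a whole has no direction with LN332 that holds under both. In these bulk samples a change in the level of a transcript per cell and a change in the share of cells that carry it cannot be told apart.

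Genes beside the members were counted in 5 lists, whose shares called between the lines are read against the 18.5% of all genes called in vehicle and 20.6% in LN332. The lists were chosen with earlier results of these data known, and none was tested as a set. Of 9 regulators of talin and kindlin in the table, 2 were called higher in MKα3+ cells with vehicle, *Apbb1ip*, for the talin recruiter RIAM (1.41 ± 0.35, log2, SE), and *Dab2* (0.58 ± 0.13), and 1 was called lower with LN332, *Rap1gap* (-0.56 ± 0.20), which is 22.2% and 11.1% of the list. Of 19 other LIM and PDZ-LIM genes, 6 were called between the lines in vehicle, 2 higher and 4 lower, and the same numbers were called in LN332 (31.6% of the list each). *Limch1*, which encodes an activator of non-muscle myosin II, stood at 4.89 ± 1.21 (MKα3-) and 86.3 ± 11.2 CPM (MKα3+) with vehicle (SD, n = 4; log2 fold change 4.16 ± 0.25 SE, adjusted p = 3.06e-09 by limma-voom). *Pdlim4*, a PDZ-LIM relative of the members, and *Csrp2*, the paralog of *Csrp1*, were called in vehicle at -1.60 ± 0.43 and -1.25 ± 0.33. Their vehicle means were only 1.22 (MKα3-) and 0.376 CPM (MKα3+) for *Pdlim4*, and 1.58 and 0.643 CPM for *Csrp2*. *Apbb1ip* was as low, at 0.831 and 2.23 CPM. These means lie under the 3.90 CPM that bounds the members given no direction, so the direction of these genes is uncertain too.

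Of 17 other actin linkers, 2 were called in vehicle and 4 in LN332 (11.8% and 23.5%). *Sorbs2*, whose product binds vinculin, was higher at both treatments (1.64 ± 0.25 and 2.13 ± 0.26, log2, SE). Of 10 further PAK genes and partners of GIT and PAK, 3 were called higher at each treatment (30%). They were *Arhgef7*, for the exchange factor β-PIX that binds GIT (78.7 ± 1.9 and 168 ± 10.2 CPM in vehicle, SD, n = 4; log2 fold change 1.09 ± 0.07 SE, adjusted p = 5.34e-09 by limma-voom), *Pak3* (1.23 ± 0.12) and *Nck1* (0.67 ± 0.10). Of 9 KANK paralogs and partners at the cell cortex, 3 were called in each comparison of the lines (33.3%), 2 higher and 1 lower. The lower gene was the paralog *Kank3* in both (-0.91 ± 0.25 in vehicle and -0.75 ± 0.27 in LN332, log2, SE). *Phldb2*, for the cortical protein LL5β, was the 1 gene of this list called with LN332, and rose in MKα3+ cells (0.62 ± 0.12, adjusted p = 0.0466 by limma-voom) and MKα3- cells (0.71 ± 0.12, adjusted p = 0.0275), while *Kank2* did not pass the call in either.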

How the data were processed

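RNA-seq of 16 libraries was made from poly(A) RNA with a kit from New England Biolabs. The authors mapped reads to mm10 with Rsubread, counted them with featureCounts and deposited raw counts of 14474 genes; per the labels bcl2fastq 2.20, edgeR and limma were also used. Whether the counting used strand is not given in the sources used here.

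The members and related lists were chosen with earlier results of these data known. Counts were scaled by TMM (edgeR 4.0.16), and the 4 groups were contrasted with limma-voom (limma 3.58.1, R 4.3.3) in 1 fit of all libraries. Adjusted p-values are Benjamini-Hochberg over all 14474 genes; a gene was called where adjusted p was under 0.05 and the log2 change exceeded 0.5 in size. A filter taken from the methods, of over 0.5 CPM in at least 3 libraries removed 0 genes. CPM are TMM-normalized, and exact permutation tests (4 against 4, 70 splits) are two-sided. Also tried were the quasi-likelihood test of edgeR, DESeq2 1.42.0, other scaling and filters, a replicate block, fits of only the groups compared, no minimum fold change, and leaving out each library. The scripts were tested on simulated counts.

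Values by group were given for members called or named by role, values by library for the 4 largest called differences in each direction and for members called with LN332, and otherwise the 3 smallest p-values with LN332; values of other members, and values by library of *Tln1*, *Kank2*, *Actn1*, *Pdlim1* and *Pdlim5*, were added after they were seen. Related genes are named only if called, at most 3 per list.

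Groups come from the sample labels, and nothing there says whether replicates were separate cultures, so p-values measure the spread between these samples, which may be technical. Any 2 replicates of a group differed by more than sampling noise (chi-square over its degrees of freedom at least 5.46). The labels number replicates alike in each group without saying what a number marks. Deviations from the group mean correlated over genes between same-numbered libraries at 0.20 to 0.62 in MKα3+ cells with and without LN332, over 0.1 in every pair, and these were taken as paired. In the other comparisons at least 1 pair was under 0.1 (lowest -0.05).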

Additional observations from a re-analysis of the deposited data

Results flagged for a closer look

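In 3 of the 68 groups of 4 libraries examined (16 members and the mean over the members, in 4 groups), 1 library stood apart from the other 3 by more than Dixon's 95% limit for 4 samples, where chance gives about 3.4. *Pdlim1* was 351 CPM in MKα3- LN332 replicate 1 against 438 to 449 CPM in the others. It was 231 CPM in MKα3+ vehicle replicate 4 against 260 to 264 CPM. *Csrp1* was 197 CPM in MKα3+ vehicle replicate 1 against 139 to 145 CPM, and without that library it was still called lower in MKα3+ cells with vehicle. The interaction of LN332 and α3 called 0 members by limma-voom, edgeR and DESeq2. In limma-voom 0 members had an unadjusted p under 0.05, against 164 of all 14474 genes.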

How the results depend on the processing

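Between the lines, members called numbered 8 to 11 in vehicle (9 with all libraries) and 10 to 15 in LN332 (11) when each library was left out, and 15 in vehicle with no minimum fold change. The replicate block gave 9 and 13, adding *Tns1* and *Flna* in LN332. Every called difference between the lines kept its direction in each alternative in which it was refitted. With LN332 the counts rest on values at the edge of the thresholds. In MKα3+ cells DESeq2 and the replicate block each called 1 member in place of 0. In MKα3- cells scaling by library size alone called 1 (*Kank2*, -0.55), the replicate block 0, and fits without a library 0 to 2. In the average, members called were 0 to 3 without a library, 0 with library size alone (*Pdlim7* and *Zyx* at 0.43), 2 with the replicate block and 6 with no minimum fold change. Scaling by library size alone moved the median of all genes by -0.08 with LN332, and the share of calls that were higher in the average from 67.9% to 32.6%, in MKα3+ cells from 92.6% to 66.7% and in MKα3- cells from 79.5% to 32.4%. The mean change over the members moved by less than the spread between replicates (0.09) in each alternative. Of all genes, edgeR called 4, DESeq2 121 and the replicate block 218 in MKα3+ cells (27 by limma-voom), DESeq2 165 and the block 259 in MKα3- cells (44), where a fit of those 2 groups alone called 1 (107 in MKα3+ cells), and the block 363 in the average (196); fits without a library called 0 to 47, 1 to 150 and 114 to 321 genes. With no minimum fold change 4115, 4654 and 637 genes passed in vehicle, in LN332 and in the average. The causes of these shifts were not tested. The 35 members above 7 CPM had at least 204 counts in every library, and whether depth limits them was not tested. *Lims2*, *Parvb*, *Tgfb1i1* and *Flnc* are too low for a direction.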
